A study of Mus musculus with 3 samples.

Results

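Protein phosphatases remove phosphate groups from proteins. In a comparison of mouse thymocytes on 3 two-colour arrays, 62 genes of these enzymes and of their subunits, inhibitors and partners were measured. All 62 are called phosphatase genes for short, though not all encode an enzyme. They were taken by symbol, as every gene with its own probe whose name begins with Ptpn, Ptpr, Dusp or Ppp1 to Ppp6. The class itself was chosen with earlier results of these data known. In all there were 6795 genes and 8905 features (a feature is a gene, or a probe that could not be given to a single gene). On each array, RNA from wild-type B6 thymocytes purified as CD69hi was set against RNA from Zap70-/- thymocytes that had not been separated, total RNA in both cases. CD69 is a surface protein that thymocytes raise after a signal through the T cell receptor, and Zap70 is the kinase that carries that signal, so the titles call the second RNA CD69lo. The 2 RNAs differ in genotype, in purification and in the cells they hold, and a ratio cannot tell these apart, nor fewer cells of a type from less RNA per cell. The labels give neither the age and sex of the mice nor whether separate mice stand behind each array, so a p-value here measures array-to-array spread that may be technical.

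A signal through the T cell receptor is passed on by phosphorylation, and phosphatases set how strong it is and how long it lasts. Tyrosine phosphatases act close to the receptor. The receptor-like enzyme CD45 (Ptprc) keeps the kinase Lck ready to act, while cytoplasmic enzymes such as Ptpn6 and Ptpn2 mostly restrain kinases. Dual-specificity phosphatases (DUSPs) of the MAP kinase phosphatase type inactivate the kinases ERK, JNK and p38 further down, and several are themselves induced by ERK, which makes them a negative feedback. The serine-threonine phosphatases PP1 and PP2A take their targets from regulatory subunits, and calcineurin (PP2B) is the calcium-activated enzyme that sends NFAT transcription factors into the nucleus.

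All values are log2 ratios of CD69hi over Zap70-/- RNA, so a ratio of 1 is a 2-fold higher level in CD69hi RNA. The dye on CD69hi RNA was Cy3 for arrays 1 and 2, which were turned to read the same way as array 3, where it was Cy5. The turned ratios correlated across all probes with r = 0.61 between arrays 1 and 2, 0.25 between arrays 1 and 3 and 0.40 between arrays 2 and 3, and across the 62 phosphatase genes with 0.71, 0.42 and 0.60 (descriptions of arrays that share RNA types and print, not tests). The direction rests on the labelled dyes and on reading the deposited value as Cy5 over Cy3, and is likely but not stated. If the deposited value were Cy3 over Cy5, every sign, direction and rank below would turn. In this reading Rag1, the recombinase gene of immature thymocytes, had a ratio of -1.19 ± 0.36 (SD, n = 3, limma adjusted p = 0.035, but 0.13 without array 1, 0.18 without array 2 and 0.072 with the arrays scaled). The sort and the deletion could not be checked on their own genes, as Cd69 and Zap70 were not analysed here. With ratios and no intensities, the level of a transcript in either RNA is unknown. The number of arrays, 3, limits the precision.

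Of the 62 genes, 4 differed between the 2 RNAs at a Benjamini-Hochberg adjusted p of at most 0.05 (limma). The MAP kinase phosphatase genes Dusp2, Dusp5 and Dusp6 were higher in CD69hi RNA and Ppp1r14b, a PP1 inhibitor, was lower. These 3 of 62 higher (4.84%) and 1 of 62 lower (1.61%) stand beside 4.13% higher and 2.81% lower among all 8905 features. The 4 of 62 that passed in either direction (6.45%) are near the 6.94% of all features. Before adjustment, 1069 of the 8905 features were higher and 1014 lower at p of at most 0.05 (limma). The 62 genes gave 10 higher and 5 lower at that p. The median ratio of the 62 genes was 0.05, and that of all features was 0.01. Above 0 on every array were 20 of the 62 (32.3%, against 24.3% of all features), and below 0 on every array were 9 (14.5%, against 22.7%). At least 2-fold higher on every array were 3 (4.84%, against 1.89%), which were again Dusp2, Dusp5 and Dusp6.

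**Figure D1:**
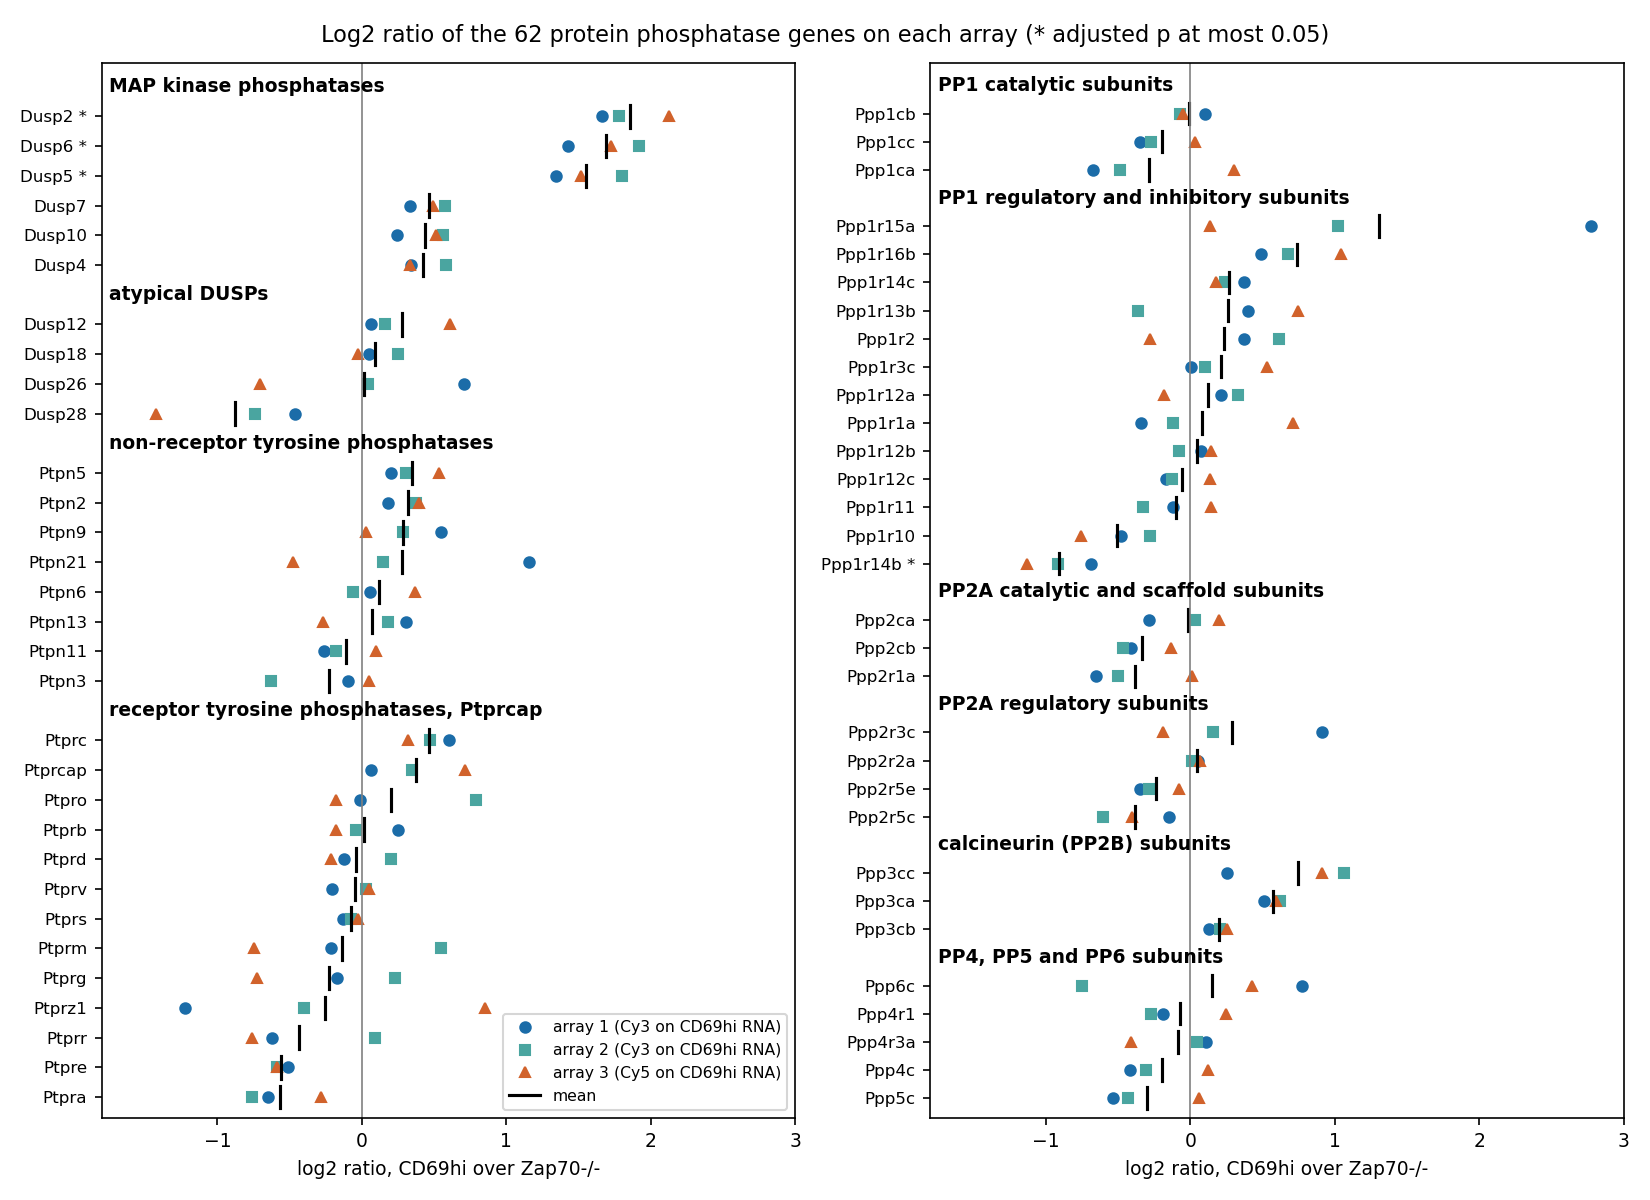
Log2 ratio of CD69hi over Zap70-/- RNA (horizontal axis) for each of the 62 protein phosphatase genes (rows, by role), with 1 point per array and a black bar at the mean. Asterisks mark adjusted p of at most 0.05 (limma). Dusp2, Dusp6 and Dusp5 lie at 1.34 or above on all 3 arrays, and the other genes lie nearer to 0 or scatter between arrays.

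The MAP kinase phosphatases had the median farthest from 0 of the 10 role groups, whichever way the ratio is read. Of 6 measured with their own probe, 3 were higher and 3 did not pass. All 6 lay above 0 on every array, with a median of 1.01. No gene lay near that median, as the 3 that passed had means from 1.55 to 1.86 and the other 3 from 0.42 to 0.47. Of all 8905 features, 4.13% were higher and 24.3% lay above 0 on every array. Dusp8, also of this type, was measured on a probe shared with 5530400B01Rik and is not among the 6. That probe had ratios of 0.60, 0.62 and -0.37 on arrays 1, 2 and 3 (mean 0.28, limma adjusted p = 0.55). Dusp2, a nuclear phosphatase of lymphocytes that acts on ERK and p38, had ratios of 1.66, 1.78 and 2.12 on arrays 1, 2 and 3. It was 3.62-fold higher (mean 1.86 ± 0.24, SD, n = 3, limma adjusted p = 0.011). Dusp6, a cytoplasmic phosphatase that acts on ERK, had ratios of 1.43, 1.92 and 1.73 and was 3.23-fold higher (mean 1.69 ± 0.25, adjusted p = 0.013). Dusp5, a nuclear phosphatase that also acts on ERK, had ratios of 1.34, 1.80 and 1.51 and was 2.93-fold higher (mean 1.55 ± 0.23, adjusted p = 0.014). Dusp2 was the highest of these on arrays 1 and 3 and the lowest on array 2, so their order was not stable. Their means ranked between the percentiles 98.3 and 98.9 of all features.

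The other 3 MAP kinase phosphatases with their own probe had smaller ratios of one sign. Dusp7, a cytoplasmic ERK phosphatase, had ratios of 0.33, 0.58 and 0.49 (mean 0.47 ± 0.12, adjusted p = 0.12). Dusp10, which acts on JNK and p38, had 0.24, 0.56 and 0.52 (mean 0.44 ± 0.17, adjusted p = 0.15). Dusp4, a nuclear phosphatase, had 0.34, 0.59 and 0.34 (mean 0.42 ± 0.14, adjusted p = 0.15). The 95% intervals of the fit ran from 0.12 to 0.81 for Dusp7, from 0.08 to 0.80 for Dusp10 and from 0.07 to 0.77 for Dusp4. The lowest array value of Dusp2, Dusp5 and Dusp6 was 1.34 and the highest of Dusp4, Dusp7 and Dusp10 was 0.59. Dusp1 was not analysed here.

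Calls in this group leaned on array 2. Dusp2 passed whichever array was left out (adjusted p from 0.026 to 0.035). Dusp6 and Dusp5 did not pass without array 2 (adjusted p = 0.055 and 0.067), where their means were 1.58 and 1.43, and did pass without array 1 or array 3. Fewer features of any kind passed in those smaller fits, with 2.26% when array 1 was left out and 1.34% for array 2, while 7.77% passed when array 3 was left out. Without array 3 every array left had Cy3 on the CD69hi RNA, and dye and ratio cannot be told apart.

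**Figure D2:**
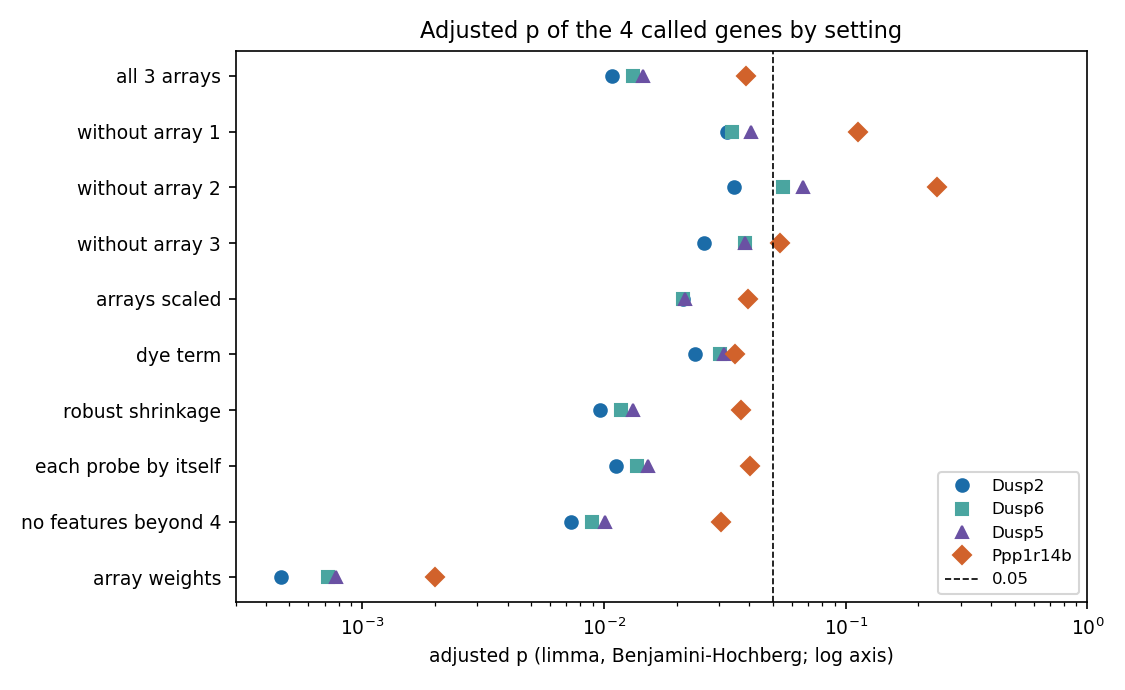
Adjusted p (horizontal log axis, limma with Benjamini-Hochberg adjustment) of the 4 genes that passed, by setting (rows), with a dashed line at 0.05. Dusp2 stays left of the line in every setting, Dusp6 and Dusp5 cross it without array 2 (0.055 and 0.067), and Ppp1r14b crosses it without any 1 of the arrays.

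The sequences just before the start sites of the 4 genes that passed are shown because 3 of them were higher together. RefSeq holds this window for 47 of the 62 genes on the GRCm38.p6 build, and each run below is the 250 bases before the annotated start, 5′ to 3′. Capitals mark matches, on either strand, to any of 5 motifs searched by their letters alone. These are the CArG box of serum response factor, the AP-1 site TGANTCA, the cyclic AMP element TGACGTCA, the EGR site GCGNGGGCG and the ETS core CCGGAA. No 2 of the capital stretches overlap.
Dusp2 (chr2:127335909-127336158, plus strand): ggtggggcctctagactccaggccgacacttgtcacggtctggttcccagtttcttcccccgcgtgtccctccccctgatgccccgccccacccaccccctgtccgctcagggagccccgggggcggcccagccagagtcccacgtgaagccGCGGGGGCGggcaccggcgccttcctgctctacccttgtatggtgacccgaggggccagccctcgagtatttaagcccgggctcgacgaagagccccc
Dusp5 (chr19:53528895-53529144, plus strand): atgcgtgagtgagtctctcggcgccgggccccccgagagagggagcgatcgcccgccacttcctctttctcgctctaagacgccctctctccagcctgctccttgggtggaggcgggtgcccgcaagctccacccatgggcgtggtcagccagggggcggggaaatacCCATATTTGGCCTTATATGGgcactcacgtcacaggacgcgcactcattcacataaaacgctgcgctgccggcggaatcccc
Dusp6 (chr10:99262981-99263230, plus strand): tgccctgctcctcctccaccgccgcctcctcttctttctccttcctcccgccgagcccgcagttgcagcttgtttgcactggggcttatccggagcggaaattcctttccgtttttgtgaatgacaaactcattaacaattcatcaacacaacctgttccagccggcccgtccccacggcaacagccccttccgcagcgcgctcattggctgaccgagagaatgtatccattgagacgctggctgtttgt
Ppp1r14b (chr19:6974798-6975047, plus strand): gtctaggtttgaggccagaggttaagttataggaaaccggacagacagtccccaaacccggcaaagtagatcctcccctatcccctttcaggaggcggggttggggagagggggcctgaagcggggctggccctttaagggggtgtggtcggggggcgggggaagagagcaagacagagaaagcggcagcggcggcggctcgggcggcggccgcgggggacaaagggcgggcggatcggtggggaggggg

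The 3 DUSP windows had no motif in common among those 5. Dusp2 held 1 EGR match, GCGGGGGCG, starting 98 bases before the start site. Dusp5 held 2 adjoining CArG boxes, CCATATTTGG at 82 and CCTTATATGG at 72 bases before it. Dusp6 and Ppp1r14b held none of the 5. A CArG box occurred in 1.47% of the 32851 windows of this length in the table, an EGR match in 4.70%, an AP-1 match in 6.75%, a cyclic AMP element in 1.55% and an ETS core in 12%. Among the 47 phosphatase windows the counts were 1, 10, 0, 4 and 6 in that order, and their median GC content was 64.0% against 52.4% for all windows, which hold non-coding genes too. The E-box CANNTG, the site of E proteins, matched 2 times in Dusp2, 1 time in Dusp6 and 0 times in Dusp5 and Ppp1r14b. It occurred in 66.2% of all windows and in 21 of the 47 phosphatase windows (44.7%). A match is a description of letters, and no match says only that they are not in this window.

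The 4 atypical DUSPs, small enzymes without the MAP kinase binding domain, did not pass. Dusp28 had ratios of -0.46, -0.74 and -1.43, all below 0 but spread widely (mean -0.88 ± 0.50, adjusted p = 0.099). Dusp12 lay above 0 on every array (mean 0.28 ± 0.29). Dusp26 had 0.71, 0.04 and -0.70, so its mean of 0.01 hides arrays that point opposite ways. Dusp18 had a mean of 0.09 ± 0.14.

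Among tyrosine phosphatases, 0 of 8 non-receptor and 0 of 13 receptor-class genes passed (limma). Before adjustment, 0 and 3 of them had a p of at most 0.05, beside 1069 higher and 1014 lower of all 8905 features. Ptprc, the gene of CD45, had ratios of 0.61, 0.48 and 0.32, above 0 on all 3 arrays (mean 0.47 ± 0.14, adjusted p = 0.12, 95% interval 0.12 to 0.82). Ptprcap, which encodes a small protein bound to CD45 and is no phosphatase itself, had 0.06, 0.35 and 0.72 (mean 0.38 ± 0.33, adjusted p = 0.28). On the other side lay a related pair of receptor phosphatases. Ptpre had ratios of -0.51, -0.59 and -0.59, with the smallest SD but 1 among the 62 genes (mean -0.56 ± 0.04, adjusted p = 0.072). Ptpra, which activates Src kinases, had -0.65, -0.76 and -0.29 (mean -0.57 ± 0.25, adjusted p = 0.11). The other 9 receptor-class genes had means from -0.43 (Ptprr) to 0.20 (Ptpro), and Ptprs alone of them kept a single sign (mean -0.08 ± 0.05).

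The 8 non-receptor tyrosine phosphatase genes had means from -0.23 to 0.35. Ptpn2, which acts on JAK and Src kinases, had ratios of 0.18, 0.38 and 0.40 (mean 0.32 ± 0.12, adjusted p = 0.24). Ptpn6, the main inhibitory phosphatase recruited by ITIM receptors, had 0.05, -0.06 and 0.37 (mean 0.12 ± 0.22, adjusted p = 0.68, 95% interval -0.27 to 0.51). Ptpn11, which promotes Ras signalling, had -0.26, -0.18 and 0.10 (mean -0.11 ± 0.19, adjusted p = 0.69, 95% interval -0.48 to 0.26). For Ptpn6 and Ptpn11 the intervals leave out a 2-fold difference in either direction. The largest mean in this group, 0.35 ± 0.17, belonged to Ptpn5 (adjusted p = 0.22). Ptpn22 was not analysed here.

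PP1 was represented by 3 catalytic and 13 regulatory genes. Ppp1r14b, which encodes an inhibitor of PP1, was lower on every array with ratios of -0.69, -0.92 and -1.13, or 1.88-fold lower in CD69hi RNA (mean -0.91 ± 0.22, SD, n = 3, limma adjusted p = 0.039). This call ended with any array left out (adjusted p = 0.11, 0.24 and 0.053 for leaving out arrays 1, 2 and 3), although the mean stayed between -1.02 and -0.80. Its relative Ppp1r14c had a mean of 0.26 ± 0.10 over 2 probes (adjusted p = 0.30). Ppp1r15a, a stress-induced subunit that directs PP1 to the translation factor eIF2α, had the largest mean of any phosphatase gene that did not pass, but its ratios were 2.77, 1.02 and 0.13 (mean 1.31 ± 1.34, adjusted p = 0.23), and its mean was 0.58 without array 1. Ppp1r16b, a membrane-targeting subunit, had 0.49, 0.68 and 1.04 (mean 0.74 ± 0.28, adjusted p = 0.072), and the nuclear subunit Ppp1r10 had -0.48, -0.28 and -0.76 (mean -0.51 ± 0.24, adjusted p = 0.14). The catalytic genes had means of -0.29 ± 0.52 (Ppp1ca), -0.01 ± 0.09 (Ppp1cb) and -0.20 ± 0.20 (Ppp1cc), and 0 of these 3 passed (limma, also 0 before adjustment) or kept a single sign.

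Of 3 calcineurin and 7 PP2A genes 0 passed (limma, with 2 and 0 at p of at most 0.05 before adjustment). Of all 8905 features, 1069 were higher and 1014 lower at that p. The 3 measured calcineurin catalytic genes lay above 0 on every array, Ppp3cb only as the mean of its probes. Of all features, 24.3% lay above 0 on every array. Ppp3ca had ratios of 0.51, 0.62 and 0.59 (mean 0.57 ± 0.06, adjusted p = 0.071), Ppp3cc had 0.25, 1.06 and 0.91 (mean 0.74 ± 0.43, adjusted p = 0.11), and Ppp3cb had 0.13, 0.21 and 0.26 as the mean of 3 probes (mean 0.20 ± 0.06, adjusted p = 0.41). The probes of Ppp3cb had separate means of 0.30, 0.06 and 0.23. The probe at 0.06 had ratios of 0.19, 0.12 and -0.12 on arrays 1, 2 and 3. That at 0.23 had -0.12, 0.22 and 0.58, so both changed sign between arrays. The regulatory gene Ppp3r1 was not analysed here. In PP2A, the catalytic gene Ppp2cb had -0.41, -0.46 and -0.13 (mean -0.33 ± 0.18, adjusted p = 0.24) and its partner Ppp2ca -0.28, 0.03 and 0.20 (mean -0.02 ± 0.24). The scaffold gene Ppp2r1a had a mean of -0.38 ± 0.35 and the targeting subunit gene Ppp2r5c -0.39 ± 0.23 (adjusted p = 0.28 and 0.22). PP4, PP5 and PP6 genes had means from -0.30 (Ppp5c) to 0.15 (Ppp6c), with Ppp4c at -0.20, and each of the 5 changed sign between arrays. Over all 11 measured catalytic genes of PP1 to PP6, 0 passed (limma, 2 before adjustment, Ppp3ca and Ppp3cc) and the median was -0.02.

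**Figure D3:**
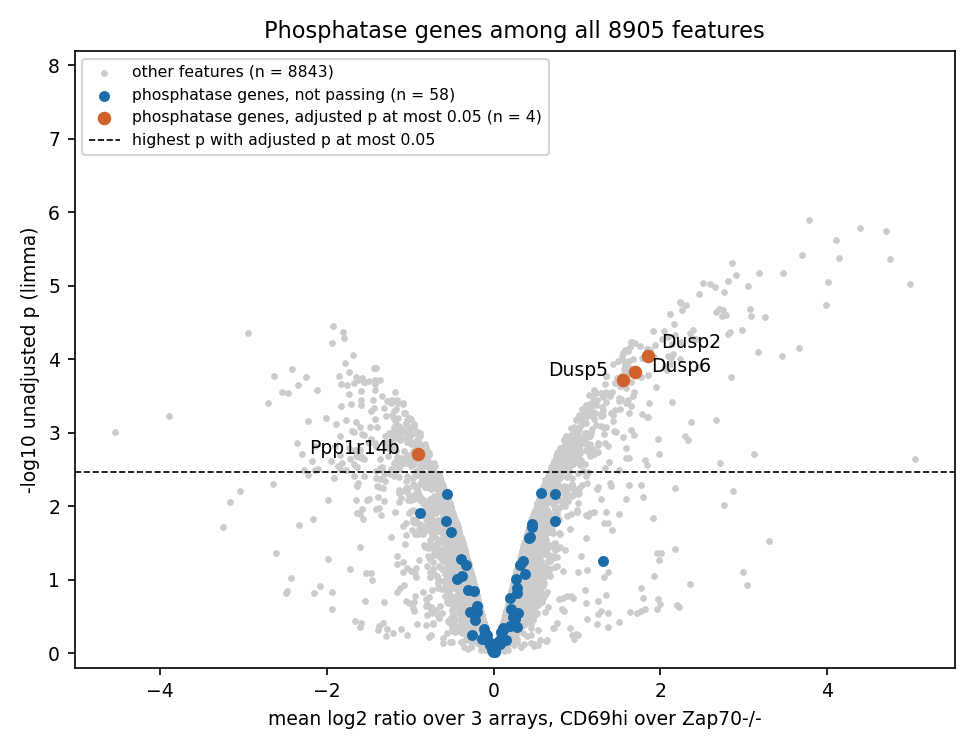
Mean log2 ratio over 3 arrays (horizontal axis) against -log10 of the unadjusted limma p (vertical axis) for all 8905 features, with the 62 phosphatase genes in colour and a dashed line at the highest p that passed. The 3 DUSP genes lie on the right arm and Ppp1r14b on the left, and the other 58 lie below the line with means from -0.88 to 1.31.

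Of the 58 genes that did not pass, 50 had a mean within 0.5 of 0, and for 52 the 95% interval lay within a 2-fold difference in either direction. Their median interval, which is not adjusted for the number of features, reached 0.41 to each side of the mean. Differences smaller than this were mostly not resolvable with 3 arrays, and passing the adjusted threshold took larger ones. Ppp3ca (mean 0.57 ± 0.06), Ptpre (-0.56 ± 0.04) and Ppp1r16b (0.74 ± 0.28) did not pass. Signs often differed between the dye orientations. In 20 of 62 genes (32.3%) arrays 1 and 2 shared a sign that array 3 did not, against 30.8% of all features. Examples are Ppp1ca (-0.68, -0.49 and 0.31) and Ptprz1 (-1.23, -0.40 and 0.85). When a dye effect was fitted beside the ratio, 5 phosphatase genes were higher and 3 were lower, against 6.31% and 5.77% of all features. Ppp1r16b (adjusted p = 0.038) and Ppp3ca (0.049) joined the 3 DUSPs, and Dusp28 (0.035) and Ptpre (0.048) joined Ppp1r14b (0.035). The dye effect itself passed for 0 of the 62 genes and 0 of the 8905 features (limma, 7 and 2161 at p of at most 0.05 before adjustment) in a fit that leaves 1 residual degree of freedom. Weighting the arrays let 41.1% of all features pass, and that fit gave array 2 a weight of 4.56 against 0.93 and 0.23.

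**Figure D4:**
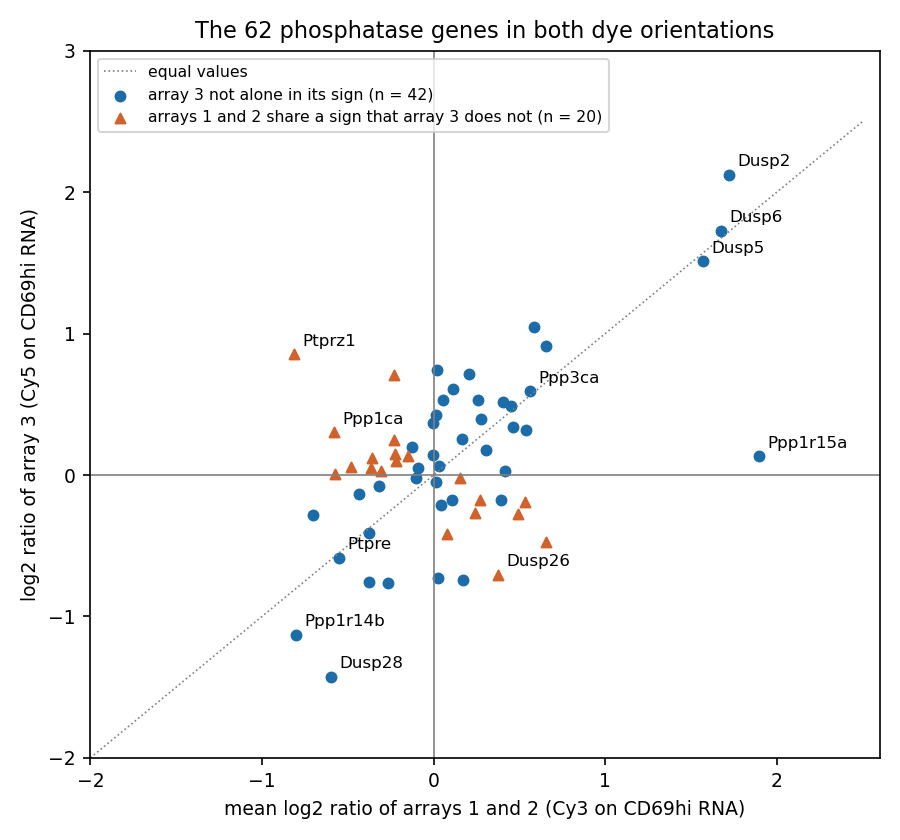
Mean log2 ratio of arrays 1 and 2 (Cy3 on CD69hi RNA, horizontal axis) against the ratio of array 3 (Cy5 on CD69hi RNA, vertical axis) for the 62 phosphatase genes, with equal values on the dotted line. Orange triangles are the 20 genes for which array 3 alone had the opposite sign. Dusp2, Dusp5 and Dusp6 lie near the dotted line, and Ppp1r15a lies far from it.

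Genes around these enzymes were listed by pathway, with earlier results of these data known. Of 30 MAP kinase cascade genes 2 were higher and 0 lower (median 0.24), a share of 6.67% that is near the 6.94% of all features, and 16 lay above 0 on every array, where 24.3% of all features did. The p38 family kinase gene Mapk11 had ratios of 2.41, 2.90 and 2.94 (mean 2.75 ± 0.30, SD, n = 3, adjusted p = 0.0068), and Map3k8, a kinase upstream of ERK, had 0.71, 0.87 and 0.89 (mean 0.82 ± 0.10, adjusted p = 0.036). Mapk11 passed in each leave-one-out fit and Map3k8 in none (adjusted p = 0.14, 0.28 and 0.0503 for arrays 1, 2 and 3). Of 23 substrates and partners of tyrosine phosphatases 5 were higher and 2 lower (median 0.22), a share of 30.4% beside 6.94% of all features. Because this list was chosen with earlier results known, the share is a description and no test of the list. Leaving out arrays 1, 2 and 3 gave 3, 2 and 4 higher and 0, 0 and 2 lower, and scaling the arrays gave 5 and 0. The shares of all features in the same leave-one-out fits were the 2.26%, 1.34% and 7.77% given above. The inhibitory receptor Cd5 had a mean of 4.75 ± 0.43 (adjusted p = 0.0051), and Btla, another inhibitory receptor that recruits Ptpn6 and Ptpn11, had 1.95 ± 0.41 (adjusted p = 0.016). The Src kinase gene Fyn, a substrate of CD45, had 1.57 ± 0.16 (adjusted p = 0.012, and 0.060 without array 2). Outside the naming rule, Cd72 (0.95) and Tyk2 (0.91) were the other higher genes and Tec (-1.59) and Cbl (-1.12) the lower ones.

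Of 18 calcineurin regulators and NFAT factors 1 was higher and 2 lower (median 0.05), a share of 16.7% beside 6.94% of all features. The NFAT genes moved in opposite directions, with Nfatc1 at ratios of 1.34, 1.62 and 1.74 (mean 1.57 ± 0.21, adjusted p = 0.014) and Nfatc3 at -1.71, -1.62 and -1.27 (mean -1.53 ± 0.23, adjusted p = 0.015). The Nfatc1 call was lost without array 2 (adjusted p = 0.062), and that of Nfatc3 without array 1 (0.056) and also without array 2 (0.067). The calcium channel gene Itpr2 was at the threshold (mean -0.87 ± 0.28, adjusted p = 0.0496) and passed in none of the leave-one-out fits (adjusted p = 0.11, 0.34 and 0.084). Leaving out arrays 1, 2 and 3 gave 1, 0 and 2 higher and 0, 0 and 1 lower. In the same fits 2.26%, 1.34% and 7.77% of all features passed. Of 21 phosphatase genes of other names, such as the PPM, CDC25 and EYA families and the myotubularin gene Mtmr1, 0 passed (limma, median -0.21). Before adjustment, 1 above and 5 below 0 had a p of at most 0.05, beside 1069 and 1014 of all 8905 features. Ppm1m came nearest to passing (mean 0.70 ± 0.17, adjusted p = 0.059).

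Lists of cell type markers, also chosen with earlier results known, differed among themselves. Among all features 4.13% were higher, 2.81% were lower and 22.7% lay below 0 on every array. Of 13 macrophage and dendritic cell genes 8 were higher and 0 lower, with means from 0.04 (Itgam) to 2.83 (Ctss). Lyz2 had 2.51 ± 0.08, Apoe 2.46 ± 0.14 and C1qa 2.23 ± 0.09 (adjusted p from 0.0051 to 0.0068). Macrophages and dendritic cells also express DUSP genes, and the part of such cells in the ratios of Dusp2, Dusp5 and Dusp6 was not tested. Of 8 granulocyte genes 1 was lower, S100a8 (-0.86 ± 0.27), and 7 lay below 0 on every array. Of 7 B cell, 3 erythroid and 4 stromal genes 0 passed (limma). Before adjustment 2, 1 and 1 had a p of at most 0.05, beside 1069 higher and 1014 lower of all 8905 features. Of 6 NK and innate-like genes 1 was higher, Il2rb (1.82 ± 0.76), and 1 was lower, Gzma (-2.29 ± 0.94). The S100a8 call ended in every leave-one-out fit (adjusted p = 0.18, 0.35 and 0.052 for arrays 1, 2 and 3) and with the arrays scaled (0.065). That of Il2rb ended without array 2 (0.13) or array 3 (0.089), and that of Gzma without array 1 (0.11) or array 2 (0.087) and with the arrays scaled (0.078). Of 8 thymocyte genes (median -0.25) Rag1 alone passed, as lower, and 5 lay below 0 on every array. The other 7 had means of -1.13 (Cd8a), -1.05 (Dntt), -0.29 (Cd4), -0.21 (Cd3e), -0.007 (Cd3g), -0.0017 (Cd3d) and 0.06 (Thy1).

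**Figure D5:**
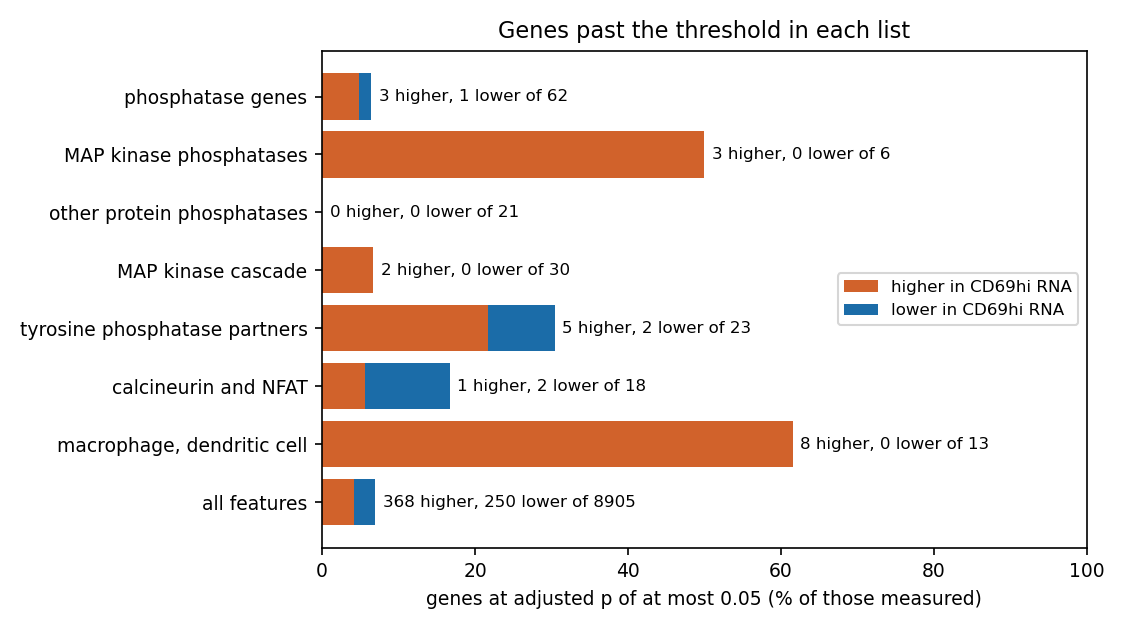
Share of measured genes that passed at an adjusted p of at most 0.05 in each list (horizontal axis, percent), higher in orange and lower in blue, with the counts beside each bar. The phosphatase genes (3 higher and 1 lower of 62) lie near all features (368 and 250 of 8905), and the MAP kinase phosphatases among them (3 of 6) lie above. The gene lists were chosen with earlier results of these data known, so the shares are descriptions and not tests.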

How the data were processed

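The deposited values, per the labels from 3 spotted two-colour arrays of one print, are 1 log ratio per probe and array, read here as log2 of Cy5 over Cy3. Not given in the sources used here are the log base, the background correction and the normalization, and with a natural logarithm the fold changes would be larger. The values were centred near 0 on each array. Without intensities, no filter on dim spots was possible.

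The platform annotation pairs 7486 of 9596 probes with 1 gene symbol, 483 with several and 1627 with none. Probes of 1 symbol were averaged, which gave 8905 features, and 70 probes gave the 62 phosphatase genes, 5 of them with several probes, whose means spanned at most 0.36. All 62 Entrez identifiers were found in RefSeq (GRCm38.p6) with 0 symbols changed. RefSeq lists 1 of them (Ptprv) as a pseudogene. Arrays 1 and 2 were multiplied by -1. Each feature was fitted with limma 3.58.1 in R 4.3.3 (lmFit, eBayes, 1 coefficient, two-sided, Benjamini-Hochberg over all features, threshold 0.05). The fit was also run on simulated data with independent noise of equal size on each array. Those data held no dye effect and no difference in quality between arrays, so the run cannot speak to either. Spotted cDNA probes can bind related genes. The phosphatase genes and the other lists were chosen with earlier results of these data known. Named are all phosphatase genes that passed, a set of well-known members, and up to 3 passing genes per other list, or 1 where none passed. In each role group, the gene with the largest absolute mean among those that did not pass is named too. Other members are named after their values were seen.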

Additional observations from a re-analysis of the deposited data

How the results depend on the processing

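Leaving out each array in turn, 119 to 692 of all features passed, 1 to 3 phosphatase genes were higher and 0 to 0 lower. Scaling the arrays to one spread gave 370 features. A dye term gave 1076 features, with 5 phosphatase genes higher and 3 lower. Array weights gave 3657 features, with 18 higher and 14 lower, in a fit that rests mostly on array 2. Robust shrinkage, fitting each probe by itself and leaving out features beyond 4 on the log2 scale kept 3 higher and 1 lower. Of the 27 phosphatase genes named by the rule, 4 changed sign in some setting, and genes outside it, such as Dusp26, Ptpn21 and Ptprz1, did so too. Ppp1cb ranged from -0.059 to 0.0255 over the leave-one-out fits and was 0.0089 with scaling. Ppp2ca ranged from -0.12 to 0.12 and was 0.036 with a dye term. Ppp6c ranged from -0.16 to 0.60 and was -0.45 with array weights. Ptpn6 ranged from -0.0045 to 0.21 and was -0.026 with array weights. The cause of these changes was not tested. Of 243 refits of the 27 genes, 210 kept both direction and side of the threshold. Each ratio already pairs the 2 RNAs on 1 array. No further pairing was possible because the 3 arrays form 1 group. With 3 arrays and no intensities, the signal over background of each spot is unknown.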

Other observations

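Another 6 probes were annotated to several genes of which 1 is a phosphatase, and stood outside the 62. The probe shared by Dusp8, a MAP kinase phosphatase, and 5530400B01Rik had ratios of 0.60, 0.62 and -0.37 on arrays 1, 2 and 3 (mean 0.28 ± 0.56, SD, n = 3, limma adjusted p = 0.55), so both arrays with Cy3 on the CD69hi RNA lay above 0 and array 3 lay below. The probe shared by Ptprcap and the kinase gene Rps6kb2 had 0.30, 0.06 and -0.27 (mean 0.03 ± 0.29, adjusted p = 0.93), while the probe of Ptprcap alone had a mean of 0.38. The 2 probes shared by Ppp2r3a, Msl2 and C530025M11Rik had means of 0.13 each (adjusted p = 0.61 and 0.64), that of Ppp2r3d and 4930526I15Rik 0.04, and that of Ppp4r1l-ps and C030010B13Rik 0.18.

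The 4 probes of Ppp1r12a, a myosin-targeting subunit of PP1, had separate means of 0.20, 0.11, 0.23 and -0.065, and each of the first 3 lay above 0 on arrays 1 and 2 and below 0 on array 3. Probes of 1 transcript on the same array share its RNA and dyes, so they are not replicates of the comparison.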
